A study of Mus musculus with 28 samples.

Results

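Messenger RNA levels of 10 genes of iron handling were followed in mouse hearts. The genes are Tfrc, Slc11a2, Slc39a14, Fth1, Ftl1, Slc40a1, Hamp, Hfe, Aco1 and Ireb2. They were chosen by name, with earlier results of these data known. In a count table of 45513 rows, 11 rows carried these names. The additional row named Fth1 (ENSMUSG00000109706), which the reference gene names list as the pseudogene Fth-ps3, held 6 counts over all libraries and was left out. All 10 genes passed the filter on low counts and belong to the 24273 genes tested.

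The hearts came from adult male C57BL/6 mice that had a 5/6 nephrectomy, which removes most kidney tissue and models chronic kidney disease (CKD), or a sham operation at 6 weeks of age. All mice ate a diet with 1% hydroxyproline, a precursor of oxalate, and 0.5% calcium. On day 7 each received 1 gavage of Oxalobacter formigenes (Oxf), a gut bacterium that degrades oxalate, or 200 µl of culture medium (vehicle). RNA of ventricular myocardium, perfused with saline, was sequenced from 10 sham-vehicle, 6 CKD-vehicle, 5 sham-Oxf and 7 CKD-Oxf mice, 1 library per mouse. The design describes 10 mice per group, and the remaining mice were not analysed here. No mouse carried an engineered allele according to the labels, and the controls shared the diet and the gavage of medium. The question named in the title of the study is the effect of the bacterium on kidney disease and cardiac remodelling.

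Heart muscle takes up iron mainly as transferrin bound to the transferrin receptor, holds it in ferritin and releases it through ferroportin, the only known iron exporter of mammalian cells. The iron regulatory proteins, encoded by Aco1 and Ireb2, bind hairpins called iron-responsive elements when the cell is short of iron. Binding in the 3′ untranslated region (UTR) protects the transferrin receptor mRNA from decay, whereas binding in the 5′ UTR blocks translation of ferritin and ferroportin mRNA, which RNA counts do not measure.

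Depth ran from 19.8 to 65.4 M counts per library (M, mega), with a median of 38.1 M. Sham-Oxf replicate 1 stood apart: 15879 genes had a count there, and 27128 to 33995 did in each of the other 27. The share of counts in the rows of the 7SL RNA, Rn7s1 and Rn7s2, ran from 1.83% to 21.0%, with medians of 2.7% (sham-Oxf) and 7.73% (CKD-Oxf) after the bacterium and 10.1% (sham) and 14% (CKD) after vehicle. Counts of these rows differed by no more than 0.0113%, so the share may count the same reads at both. A clock score, the mean log2 level of 10 genes around Dbp minus that of 5 genes around Arntl, relative to sham-vehicle, was -1.44 ± 0.986 (SD) in CKD-vehicle, 0.999 ± 0.521 in CKD-Oxf and 1.59 ± 0.441 in sham-Oxf. Of the cardiomyocyte markers, 10 of 10 had counts in every library, with a summed level of 46751 to 95460 CPM (counts scaled for library size, with TMM factors). Atrial markers, 7 of 7, also had counts in every library of this tissue labelled as ventricular, at a summed 73.2 to 2882 CPM.

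The iron-responsive elements of the members are shown because they are the hairpins through which the regulatory proteins act on these mRNAs. The search was for the hexamer loop CAGTGN closed by 5 base pairs and preceded by a C, whose pairing was not checked. It covered the sense strand of annotated coding transcripts of the GRCm38 build. It found matches in 4 of the 10 members, against 294 of 21901 genes searched (1.34%). Tfrc held 4 in its 3′ UTR, and Slc40a1, Fth1 and Ftl1 held 1 each in the 5′ UTR. Capitals mark the loop, and 5 bases flank the hairpin on each side.
Tfrc element 1, chr16:32631220-32631246, plus strand: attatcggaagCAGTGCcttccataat
Tfrc element 2, chr16:32631599-32631625, plus strand: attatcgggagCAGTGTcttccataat
Tfrc element 3, chr16:32631664-32631690, plus strand: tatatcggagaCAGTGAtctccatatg
Tfrc element 4, chr16:32631711-32631737, plus strand: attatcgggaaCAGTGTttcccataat
Slc40a1 element 1, chr1:45925466-45925492, minus strand: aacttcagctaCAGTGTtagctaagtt
Fth1 element 1, chr19:9982733-9982759, plus strand: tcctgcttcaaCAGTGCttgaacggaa
Ftl1 element 1, chr7:45459780-45459806, minus strand: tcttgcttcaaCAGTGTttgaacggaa
A match describes these letters only. The other 6 members had no match to this pattern in the annotated transcripts searched, which says nothing about other forms of the element.

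Per length, ferritin led the members. The mean level over the 28 libraries was 59.0 CPM per kilobase of exon for Ftl1 and 56.3 for Fth1, the light and heavy chains of ferritin. Hamp followed at 9.44, Aco1 at 5.29, Tfrc at 4.09, Ireb2 at 3.89, Hfe at 3.05, Slc39a14 at 2.91, Slc11a2 at 2.09 and Slc40a1 at 1.13 CPM per kilobase. The order depended on the length used. Per kilobase of 1 coding transcript of each gene, that with the most elements or else the longest, Fth1 stood at 131 and Ftl1 at 81.6 CPM, followed by Hamp (9.44), Ireb2 (6.4), Slc39a14 (6.23), Aco1 (6.21), Tfrc (5.17), Hfe (3.05), Slc40a1 (3.03) and Slc11a2 (3.01). The spread over all libraries differed widely between members. The highest library exceeded the lowest 4.5-fold for Tfrc and 1.65-fold for Aco1, and Hamp ran from 0 to 12.6 CPM.

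**Figure D1:**
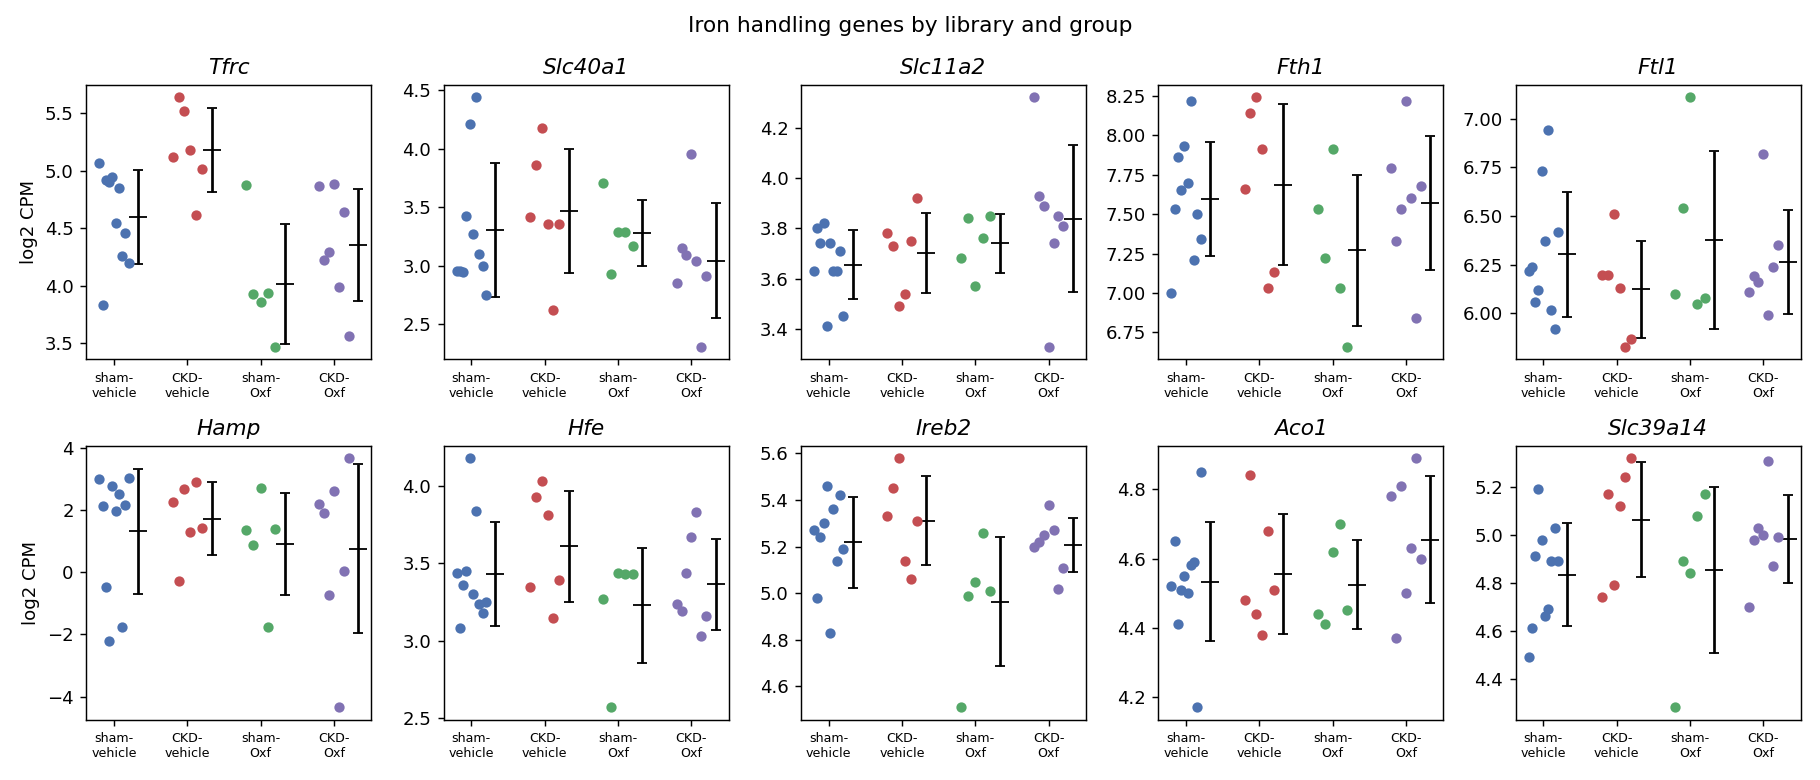
Level of each member on the log2 CPM scale (vertical axes, which differ in range and do not start at 0) in the 4 groups (horizontal axes). Points are libraries, and the cross bars and whiskers are the group mean and SD. In all 10 panels the groups overlap, and the wide panel is Hamp.

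Tfrc (ENSMUSG00000022797, chromosome 16, 32608920 to 32632794) encodes the transferrin receptor, the main entry of iron into the cell, and was the 1 member past the threshold in any comparison. Its level in the vehicle groups was 14.2 (lowest), 26.1 (median) and 33.6 CPM (highest) in sham-vehicle, and 24.5, 35.5 and 49.8 CPM in CKD-vehicle. With the bacterium it was 29.3, 15.2, 14.4, 15.3 and 11.1 CPM in the 5 sham-Oxf libraries, and 11.7 (lowest), 19.6 (median) and 29.6 CPM (highest) in CKD-Oxf. Of the 12 Oxf libraries, 11 lay below the vehicle median of the same surgery, 7 of 7 in CKD and 4 of 5 in sham, but the ranges overlapped. The sham-Oxf library above that median is replicate 1, the library with few detected genes.

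Averaged over surgery, Tfrc was 1.6-fold lower with Oxf than with vehicle. The log2 fold change was -0.68 ± 0.16 (SE), with a 95% interval of -1 to -0.36 (edgeR quasi-likelihood p 0.000253, Benjamini-Hochberg adjusted p 0.0327). Within CKD the change was -0.80 ± 0.23 (edgeR adjusted p 0.196), and within sham -0.56 ± 0.23 (edgeR adjusted p 0.318), neither past the threshold. These comparisons did not differ from each other beyond their error, with an interaction of -0.25 ± 0.32 (95% interval -0.88 to 0.38, edgeR adjusted p 1). Without sham-Oxf replicate 1 the averaged change was -0.82 (edgeR adjusted p 0.00931).

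After nephrectomy the mean of Tfrc was higher, short of the adjusted threshold. Its mean level was 37.2 ± 9.19 CPM in CKD-vehicle (SD, n = 6) and 25.0 ± 6.51 CPM in sham-vehicle (n = 10), a log2 fold change of 0.57 ± 0.21 (edgeR p 0.0105, adjusted p 0.955). On the log2 CPM scale the group means were, from the highest down, 5.18 ± 0.37 (CKD-vehicle), 4.60 ± 0.41 (sham-vehicle), 4.35 ± 0.49 (CKD-Oxf) and 4.01 ± 0.52 (sham-Oxf, all SD). Of the steps in this order, that from CKD-vehicle to sham-vehicle, 0.58, was larger than the SD of both groups, and the other two were smaller than the spread. With Oxf, CKD exceeded sham by 0.33 ± 0.24 (edgeR adjusted p 0.811).

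**Figure D2:**
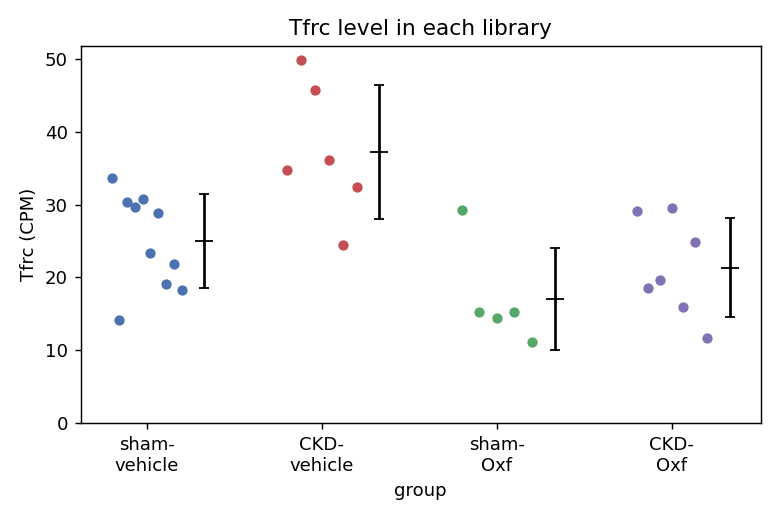
Level of Tfrc in CPM (vertical axis, from 0) in the 28 libraries by group (horizontal axis). Points are libraries, and the cross bars and whiskers show the mean and SD. The 6 CKD-vehicle libraries run from 24.5 to 49.8 CPM and the 7 CKD-Oxf libraries from 11.7 to 29.6 CPM.

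The level of Tfrc moved with the clock score and with the 7SL share, which also differed between the groups. Spearman's rho of the log2 level of Tfrc was -0.796 with the clock score and 0.722 with the log2 7SL share over the 28 libraries, which share depth and scaling. From deviations from the group means, rho was -0.617 and 0.591. With the log2 total count the rho of Tfrc was 0.632, and 0.351 from group deviations. Of the other members, Ireb2 (0.783), Slc40a1 (0.644), Hfe (0.637) and Fth1 (0.567) also rose with the 7SL share. The remaining members had a rho from -0.414 (Aco1) to 0.19 (Slc39a14) with it. Averaged over surgery, 7 of 10 clock genes around Dbp were higher with Oxf and 4 of 5 around Arntl were lower (edgeR, adjusted p under 0.05). Of all genes tested, 2.81% were called in this comparison, 1.54% as lower. With the clock score as a covariate the change of Tfrc with Oxf was -0.12 (edgeR adjusted p 0.941), and with the log2 7SL share it was -0.45 (edgeR adjusted p 0.148), both short of the threshold. With the clock score the difference between CKD-vehicle and sham-vehicle in Tfrc was 0.15 (edgeR adjusted p 1). The clock score differed between the gavage groups, so clock phase and gavage cannot be told apart here. Leaving out single libraries gave -0.82 to -0.62, past the threshold in 19 of 28 cases (edgeR adjusted p 0.00566 to 0.0658). It was lost without sham-vehicle replicate 4 (edgeR adjusted p 0.0525), CKD-vehicle replicates 1 (0.0508), 2 (0.0654) and 3 (0.0631), sham-Oxf replicates 4 (0.0557) and 5 (0.0658), and CKD-Oxf replicates 2 (0.051), 3 (0.0565) and 5 (0.05).

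**Figure D3:**
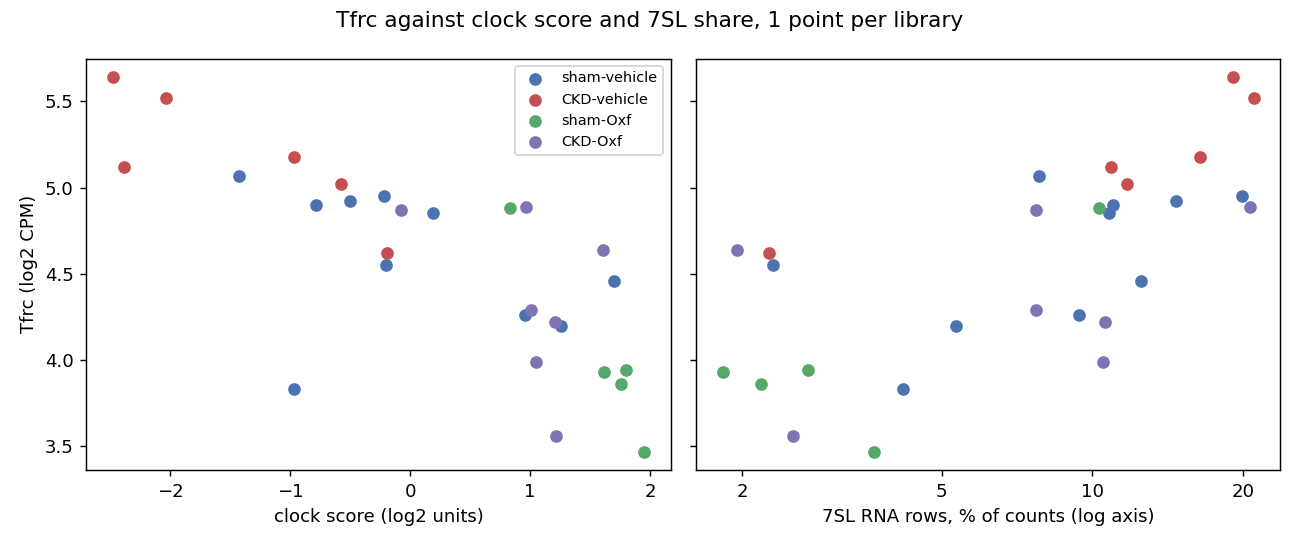
Level of Tfrc (log2 CPM, vertical axes) against the clock score (left, log2 units) and the share of counts in the 7SL RNA rows (right, percent, log axis), 1 point per library, coloured by group. Tfrc is lower where the clock score is higher (rho -0.796) and higher where the 7SL share is higher (rho 0.722).

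Slc11a2 and Slc39a14, the other importers, varied less, with SDs of 0.19 and 0.25 log2 CPM over the 28 libraries against 0.57 for Tfrc. Slc11a2 (ENSMUSG00000023030, chromosome 15, 100387898 to 100425072) encodes DMT1, which carries ferrous iron out of the endosome. Its means on the log2 CPM scale were 3.84 ± 0.29 in CKD-Oxf, 3.74 ± 0.12 in sham-Oxf, 3.70 ± 0.16 in CKD-vehicle and 3.66 ± 0.14 in sham-vehicle (SD), and no step in this order exceeded the spread. The averaged change with Oxf was 0.12 ± 0.08, with a 95% interval of -0.04 to 0.28 (edgeR adjusted p 0.408). The gene overlaps Gm5475 on the other strand over 2926 bases, and the use of strand in counting is not given in the sources used here. Slc39a14 (ENSMUSG00000022094, chromosome 14, 70303469 to 70351425) encodes ZIP14, an importer of iron not bound to transferrin. Its lowest, median and highest levels were 22.4, 29.6 and 36.5 CPM in sham-vehicle and 26.7, 35.3 and 40.0 CPM in CKD-vehicle, where the ranges overlapped. The fitted difference of 0.23 ± 0.12 did not pass (edgeR p 0.0703, adjusted p 0.955), and with Oxf the averaged change was -0.02 ± 0.09 (95% interval -0.21 to 0.16).

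The ferritin chains store iron in a hollow shell. Fth1 (ENSMUSG00000024661, chromosome 19, 9980598 to 9985098), whose product oxidises the entering iron, was the member with the most counts. It ran from 127.5 over a median of 192.3 to 298.1 CPM in sham-vehicle, from 130.2 over 221.2 to 301.5 CPM in CKD-vehicle and from 114.5 over 193.9 to 298.7 CPM in CKD-Oxf. The 5 sham-Oxf libraries stood at 184.4, 149.2, 240.3, 130.8 and 101 CPM. The groups overlapped over most of their span, and sham-Oxf had the lowest mean, 161.1 ± 53.6 CPM (SD). The averaged change of Fth1 with Oxf was -0.22 ± 0.16 (95% interval -0.53 to 0.10, edgeR adjusted p 0.434). Ftl1 (ENSMUSG00000050708, chromosome 7, 45457944 to 45459884) ranged from 56.7 to 138.5 CPM over all libraries. Its largest pairwise difference was -0.20 ± 0.17, lower in CKD-vehicle than in sham-vehicle (edgeR adjusted p 0.955). Reads of Ftl1 can also match a near-identical row, and whether such reads were split or counted at both is not given. Ftl2-ps held 39.4% as many counts as Ftl1, so the level of Ftl1 is uncertain. For Fth1 the largest such row, Fth-ps2, held 1.26%. Ftl1 followed the macrophage markers, whose summed level ran from 147.3 to 295.1 CPM, with a rho of 0.753 over the 28 libraries and 0.822 from group deviations. The part of these cells in the level of Ftl1 was not tested, and in bulk tissue fewer cells of a type and less RNA per cell cannot be told apart.

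Slc40a1 (ENSMUSG00000025993, chromosome 1, 45908068 to 45926523) encodes ferroportin, the iron exporter. Its lowest, median and highest levels were 6.67, 8.25 and 21.7 CPM in sham-vehicle, 6.11, 10.5 and 18.0 CPM in CKD-vehicle, and 4.90, 8.20 and 15.5 CPM in CKD-Oxf. The sham-Oxf libraries held 13.0, 7.57, 9.73, 9.70 and 8.93 CPM, inside the range of sham-vehicle. The fitted difference of CKD-Oxf from CKD-vehicle was -0.43 ± 0.27 (edgeR adjusted p 0.503), and 6 of its 7 libraries were below the CKD-vehicle median. Hfe (ENSMUSG00000006611, chromosome 13, 23702034 to 23710854) encodes a partner of the transferrin receptors that takes part in sensing iron. Its group means lay between 3.23 ± 0.38 (sham-Oxf) and 3.61 ± 0.36 (CKD-vehicle) on the log2 CPM scale, and the averaged change with Oxf was -0.24 ± 0.13 (95% interval -0.49 to 0.02, edgeR adjusted p 0.285). Slc40a1 and Hfe had the highest rank correlation of any pair of members, 0.757 over the 28 libraries.

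Hamp (ENSMUSG00000050440, chromosome 7, 30942368 to 30944032) encodes hepcidin, the hormone that triggers the breakdown of ferroportin and is made mainly by the liver. Its counts per library were 0 to 644 (CKD-Oxf), 37 to 313 (CKD-vehicle), 9 to 217 (sham-Oxf) and 6 to 427 (sham-vehicle). The median levels were 3.71, 3.65, 2.51 and 4.38 CPM in that order, and the groups overlapped. The single library with no count, CKD-Oxf replicate 5, allows a level of up to 0.0817 CPM (3 counts), for counting error only. The averaged change of Hamp with Oxf was -0.32 ± 0.58, with a 95% interval of -1.46 to 0.82 (edgeR adjusted p 0.797), the widest interval of any member. Hamp lies wholly inside the antisense lincRNA Gm44662, and the near-identical Hamp2 held 4.95% as many counts.

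The level of Hamp followed the atrial markers (Sln, Myl7, Myl4, Bmp10, Nppa, Fgf12 and Stard10), with a rho of 0.740 over the 28 libraries and 0.743 from group deviations. The 2 libraries with the lowest atrial sums, sham-Oxf replicate 4 at 73.2 CPM and CKD-Oxf replicate 5 at 109.9 CPM, held Hamp at 0.243 and 0 CPM. CKD-Oxf replicate 7, with the highest Hamp (12.6 CPM), had an atrial sum of 1914 CPM. Other libraries departed from this pattern. CKD-vehicle replicate 2 had an atrial sum of 2644 CPM and Hamp at 0.772 CPM. Sham-vehicle replicate 9 had an atrial sum of 694.5 CPM and Hamp at 4.46 CPM. Summed atrial levels of the groups ran from 73.2 to 2192 CPM (sham-Oxf), 109.9 to 2080 (CKD-Oxf), 222.9 to 2882 (sham-vehicle) and 1115 to 2703 (CKD-vehicle). With the hepatocyte markers rho was 0.382 over the 28 libraries and 0.45 from group deviations. With the macrophage markers it was 0.511 and 0.506. Of the 10 hepatocyte markers, 4 had counts in every library. Of these, Alb had a median of 2.89 CPM and Cyp2e1 the highest single level, 162.1 CPM. The marker Apoc3 had a median of 0.0264 CPM and was at 0 in 11 libraries. The part of atrial, liver or macrophage RNA in the level of Hamp was not tested. Among all genes, those most like Hamp were Cacna2d2 (rho 0.906), Dkk3 (0.890) and Bmp10 (0.886), the last an atrial marker, a listing chosen after its values were seen.

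**Figure D4:**
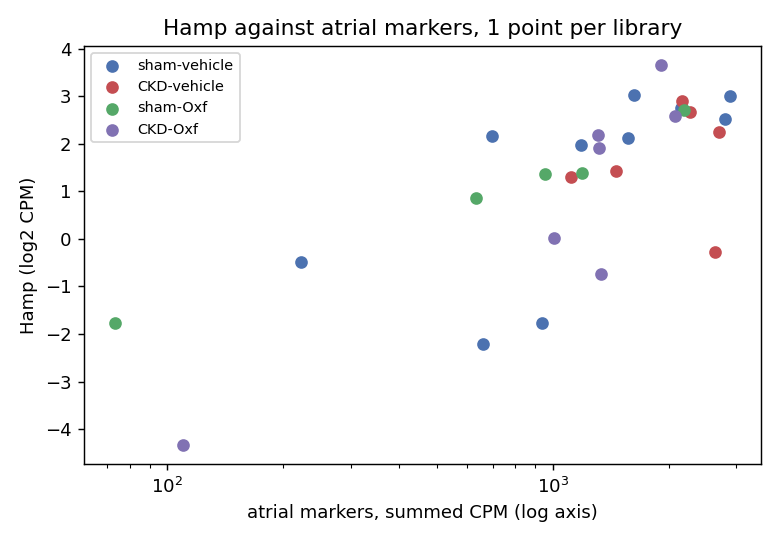
Level of Hamp (log2 CPM, vertical axis) against the summed level of 7 atrial markers (CPM, log horizontal axis), 1 point per library, coloured by group. Hamp tends to be lower where the atrial sum is lower (rho 0.740), with exceptions, and the lowest point is CKD-Oxf replicate 5, with no Hamp count.

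The regulators varied little. Aco1 (ENSMUSG00000028405, chromosome 4, 40143081 to 40198338), the cytosolic aconitase that turns into iron regulatory protein 1 when it loses its iron-sulfur cluster, had group means of 4.53 ± 0.17, 4.56 ± 0.17, 4.52 ± 0.13 and 4.65 ± 0.19 log2 CPM for sham-vehicle, CKD-vehicle, sham-Oxf and CKD-Oxf (SD). The averaged change with Oxf was 0.04 ± 0.07 (95% interval -0.10 to 0.19). Ireb2 (ENSMUSG00000032293, chromosome 9, 54863789 to 54912530) encodes the other iron regulatory protein, which is degraded when iron is plentiful. Ireb2 was at 28.4 (lowest), 38.1 (median) and 44.1 CPM in sham-vehicle and at 22.7, 31.7, 33.2, 38.3 and 32.2 CPM in the sham-Oxf libraries. The lowest of these, 22.7 CPM, is sham-Oxf replicate 1. The fitted change in sham was -0.24 ± 0.11 (edgeR p 0.04, adjusted p 0.369), and -0.15 without that library (edgeR adjusted p 0.637). Averaged over surgery, Ireb2 changed by -0.18 ± 0.08 (edgeR p 0.0356, adjusted p 0.183). Its level followed the depth of the library, with a rho of 0.800 with the log2 total count and 0.701 from group deviations.

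The calls among the members are set beside the share of all genes called. For Oxf against vehicle averaged over surgery, 1 of 10 members passed the adjusted threshold of 0.05, Tfrc, against 2.81% of all genes tested (1.54% called lower). At an unadjusted p under 0.05, 2 of 10 passed, Tfrc and Ireb2, both lower, against 23.0% of genes. The median change of the members was -0.20, and that of all genes 0. DESeq2 and limma voom each also called 1 member, against 9.97% and 22% of the genes to which each gave an adjusted p.

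In the other comparisons edgeR called 0 of 10 members. For CKD-vehicle against sham-vehicle 0.00824% of genes were called, and 1 member, Tfrc, had an unadjusted p under 0.05, against 4.46% of genes. For CKD-Oxf against CKD-vehicle 0.0330% were called, and 1 member, Tfrc, was under 0.05 unadjusted, against 13.1%. Here limma voom called Tfrc (-0.91, adjusted p 0.00665) among 15.0% of all genes. Without CKD-Oxf replicate 4 edgeR called Tfrc (-0.90, adjusted p 0.0375) among 3.83% of all genes. For sham-Oxf against sham-vehicle 0% were called, and 2 members, Tfrc and Ireb2, were under 0.05 unadjusted, against 12.6%. For CKD-Oxf against sham-Oxf 0% were called and no member was under 0.05 unadjusted, against 8.23%. For CKD against sham averaged over gavage 0% were called, with Tfrc alone under 0.05 unadjusted against 10.6% of genes (0.45 ± 0.16, edgeR adjusted p 0.335), and limma voom called Tfrc (0.58, adjusted p 0.0447) and 0.519% of all genes. For the interaction 0% were called, with no member under 0.05 unadjusted against 3.55%. DESeq2 called 0 members in each of these comparisons, where it called 0.120%, 0.785%, 0.541%, 0.421%, 0.485% and 0% of all genes in the order given here. In the remaining 4 limma voom called 0 members, and of all genes 0.383% for CKD-vehicle against sham-vehicle, 0.140% for sham-Oxf against sham-vehicle and 0% for the others. Comparisons that use the same libraries are not independent of each other.

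**Figure D5:**
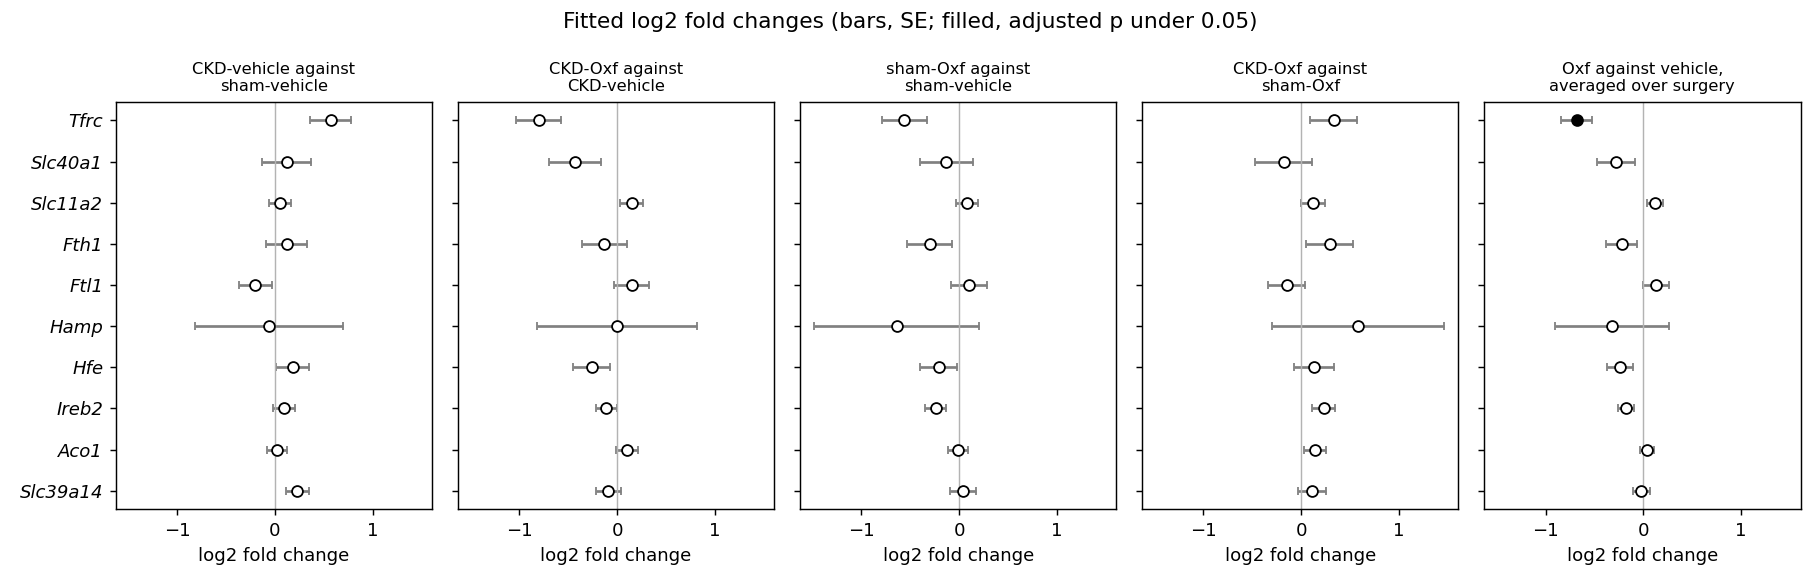
Fitted log2 fold changes of the 10 members (rows) in 5 comparisons (panels), with bars of 1 SE and filled points for an adjusted p under 0.05. The single filled point is Tfrc at -0.68 for Oxf against vehicle averaged over surgery, and the widest bars are those of Hamp.

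Beyond the members, 98 genes of iron metabolism in 8 lists were looked up, and 97 were tested. For Oxf against vehicle averaged over surgery, 3 of 97 passed, all lower (3.09% against 2.81% of all genes), and 28 of 97 had an unadjusted p under 0.05, 18 lower and 10 higher (28.9% against 23.0%). The median change over the lists was -0.12, and 0 over all genes. Steap4, a metalloreductase that reduces iron for uptake, changed by -0.56 ± 0.14 (edgeR adjusted p 0.0351), with means of 23.9 ± 5.32, 24.2 ± 7.27, 15.6 ± 4.37 and 17.0 ± 3.57 CPM in sham-vehicle, CKD-vehicle, sham-Oxf and CKD-Oxf (SD). Hspa9, a mitochondrial chaperone of iron-sulfur cluster transfer, changed by -0.67 ± 0.17 (edgeR adjusted p 0.0386), with 155.9 ± 57.2, 220.2 ± 84.0, 104.0 ± 15.9 and 130.5 ± 38.5 CPM. Bmpr1a, a receptor of the signalling that sets hepcidin, changed by -0.40 ± 0.11 (edgeR adjusted p 0.0427), with 46.7 ± 8.21, 52.9 ± 8.94, 36.4 ± 7.18 and 39.2 ± 8.30 CPM. With the clock score as a covariate these were -0.19, -0.24 and -0.25, and none passed (edgeR adjusted p 0.904, 0.903 and 0.856). With the 7SL share they were -0.47, -0.34 and -0.27, again short of the threshold (edgeR adjusted p 0.148, 0.259 and 0.215). With single libraries left out, Steap4 passed in 17, Hspa9 in 15 and Bmpr1a in 10 of 28 fits.

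By list, averaged over surgery, 1 of 13 uptake and reduction genes passed (Steap4), 1 of 22 genes of mitochondrial iron and iron-sulfur clusters (Hspa9) and 1 of 19 of hepcidin regulation (Bmpr1a). No gene passed among 5 of storage and chaperones, 6 of export and ferroxidases, 16 of heme synthesis and breakdown, 11 of cytosolic iron-sulfur clusters and 5 other mRNAs listed for an iron-responsive element (edgeR). At an unadjusted p under 0.05, with 23.0% of all genes, the counts were 1 of 13 for uptake and reduction, 9 of 22 for mitochondrial iron and iron-sulfur clusters and 8 of 19 for hepcidin regulation. In the lists with no gene past the threshold they were 1 of 5, 1 of 6, 3 of 16, 3 of 11 and 2 of 5, in the order above. The median change of the lists ran from -0.29 (mitochondrial) to 0.05 (other mRNAs listed for the element), and was -0.04 for hepcidin regulation and -0.14 for uptake and reduction.

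In the other comparisons edgeR called 0 of the 97 genes. The smallest p for CKD-vehicle against sham-vehicle was that of Smad1, a signal carrier of the hepcidin pathway, at -0.38 ± 0.13 (edgeR adjusted p 0.955). For CKD-Oxf against CKD-vehicle it was that of Hpx, which encodes the heme-binding plasma protein hemopexin, at 2.67 ± 0.73 (edgeR adjusted p 0.196), on levels of 0.135 ± 0.0552 CPM in CKD-vehicle and 0.888 ± 1.31 CPM in CKD-Oxf (SD). The CKD-Oxf libraries had a median of 0.375 and a highest value of 3.79 CPM, and without CKD-Oxf replicate 4 the change was 1.52 (edgeR adjusted p 0.126). The hepatocyte markers of that library summed to 134.4 CPM, against a CKD-Oxf median of 46.1 CPM. In CKD-Oxf replicates 6 and 7 they summed to 140.6 and 184.3 CPM. The part of liver RNA in the level of Hpx was not tested. For sham-Oxf against sham-vehicle Steap4 led at -0.62 ± 0.20 (edgeR adjusted p 0.221). Narfl, a factor of cytosolic iron-sulfur cluster assembly, led for CKD-Oxf against sham-Oxf at 0.38 ± 0.12 (edgeR adjusted p 0.303) and for CKD against sham averaged over gavage at 0.30 ± 0.08 (edgeR adjusted p 0.23). Hpx led for the interaction at 3.25 ± 1.01 (edgeR adjusted p 1), and at 2.1 without CKD-Oxf replicate 4. Unadjusted, 8, 17, 10, 10, 11 and 4 of 97 genes were under 0.05, in the order given here, against 4.46%, 13.1%, 12.6%, 8.23%, 10.6% and 3.55% of all genes. For CKD-Oxf against CKD-vehicle DESeq2 called 1 of the 97, Hpx, and 0.785% of all genes, and limma voom called 18 of the 97 and 15.0% of all genes. For CKD against sham DESeq2 called Narfl (0.485% of all genes) and limma voom called Cp, a ferroxidase (0.519%). For CKD-vehicle against sham-vehicle limma voom called Smad1 (0.383%).

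Genes with the pattern most like a member were taken by Spearman's rho of the log2 level over the 28 libraries, among 13906 genes. For Tfrc these were Rfesd (0.880), Casq2 (0.848) and Slc41a3 (0.842). For Ireb2 they were Nck1 (0.927), Orc3 (0.923) and Kbtbd3 (0.914), and for Slc39a14 Arhgef37 (0.785), RP23-214L4.1 (0.765) and Mcf2l (0.743). Among the members themselves Hfe with Ireb2 (0.652), Fth1 with Hfe (0.604) and Tfrc with Ireb2 (0.581) followed the pair of Slc40a1 and Hfe, and Ftl1 with Slc39a14 had the lowest rho (-0.523). These correlations describe libraries that share scaling and depth.

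Mouse numbers run through the groups in blocks, from 901 to 910 in sham-vehicle, and mouse number is confounded with group, so across groups these cannot be told apart. Within sham-vehicle the clock score was -1.43 in mouse 901, and 1.7 and 1.26 in mice 909 and 910. In CKD-vehicle it was -2.39 in mouse 913 and -0.581 in mouse 920. The relation of the clock score to the number was not tested. Within sham-vehicle, 0 of 10 members followed the number over the 10 mice, with Benjamini-Hochberg adjusted permutation p of 0.909 for Pearson's r for each. For Tfrc r was -0.333 (permutation p 0.343) and rho -0.503 (permutation p 0.145), and r was 0.0376 when the 2 outermost mice by number were left out. Each of the 10 libraries was then left out in turn, and 1 omission changed this result. Without sham-vehicle replicate 2 (mouse 902, 22.3 M counts), Tfrc fell with the number, with r -0.876 (exact permutation p 0.00229, adjusted p 0.0229, n = 9). There rho was -0.917 (exact permutation p 0.00131), and r was -0.781 without the 2 outermost mice. That library had the lowest Tfrc of the group, 14.2 CPM. The adjustment covers the 10 members and not the choice among omissions, so no conclusion is drawn from it.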

How the data were processed

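The 10 members and the gene lists were chosen with earlier results of these data known. The values are raw counts per gene in a table deposited by the authors, whole numbers whose totals differ between libraries. The submitters' processing notes name the mouse build mm10, STAR 2.6.1d, Subread with featureCounts 1.6.3, FastQC 0.11.7 and MultiQC 1.9. The annotation and the settings for strand and for reads that match several places are not given in the sources used here. Between the copies Rn7s1 and Rn7s2 counts differed by no more than 0.0113%. Of the table's columns, 0 per-sample columns lacked a mapped sample, and 0 rows named no gene.

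Each mouse is a replicate, numbered in accession order. edgeR 4.0.16 (R 4.3.3) fitted 4 group means to all 28 libraries: TMM scaling, filterByExpr by group (minimum count 10), estimateDisp, and the robust quasi-likelihood F test over 7 contrasts. Adjusted p-values are Benjamini-Hochberg over all 24273 genes, threshold 0.05. The SE is the absolute log2 fold change over the root of F, and intervals are 95%. Log2 CPM used a prior count of 2. The fit was tested on simulated data. Correlations with mouse number used 100000 permutations, or all orders for 9 mice.

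Positions are from GENCODE annotation of GRCm38, matched by gene identifier. Tried besides were limma voom with quality weights (3.58.1), the Wald test of DESeq2 (1.42.0) and its size factors in edgeR, omission of the filter, a filter of 10 counts in each library, the compared groups alone, the clock score or log2 7SL share as covariate, a prior count of 0.5, and each library left out. Named genes are all members; per contrast, pathway genes past the threshold, at most 8, or the 1 with the smallest p; and the 3 genes most like each of the members with the smallest p. Markers listed for fibroblasts (1 of 7 lower), endothelium (0 of 7), adipocytes (0 of 6), erythroid blood (0 of 7), macrophages (0 of 10), atrium (0 of 7), cardiomyocytes (1 of 10 lower) and hepatocytes (2 of 9 higher) were counted for Oxf against vehicle averaged over surgery (edgeR, adjusted p under 0.05). Of all genes tested, 2.81% were called there.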

Additional observations from a re-analysis of the deposited data

Results flagged for a closer look

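Hfe in sham-Oxf had 1 library far from the other 4. Replicate 2 stood at 2.57 log2 CPM and the next lowest at 3.27, a gap of 0.799 of the range of the group against a limit of 0.71 for 5 samples (Dixon's test). This was 1 of 40 combinations of gene and group tested, of which chance gives about 2.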

How the results depend on the processing

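Group levels of the members moved by less than 1 SD in 80 of 80 recomputed values. Each level was recomputed only 2 ways, with other size factors and with a prior count of 0.5. Such changes move a well counted gene little, so this does not bear on covariates, filters or left-out libraries. Of 398 recomputed counts, 353 stayed within 1.5 times the reported count and 45 did not. Counts that were 0 and stayed 0 are among the 353. The cause of the changes was not tested. Members called for Oxf against vehicle averaged over surgery were 0 with the clock score (0% of all genes called) or the 7SL share (0.544%) as covariate. They were 0 to 1 with single libraries left out (1 without CKD-Oxf replicate 4, with 13.9% of all genes). For CKD-Oxf against CKD-vehicle they were 1 by limma voom (15.0% of all genes) and 0 to 1 with libraries left out. The 1 was without CKD-Oxf replicate 4 (3.83% of all genes). For CKD against sham they were 1 by limma voom (0.519%). Members that followed mouse number were 0 to 1 with libraries left out. The pathway genes called, 3 for Oxf averaged over surgery, were 9 by DESeq2 (9.97% of all genes called), 30 by limma voom (22%), 1 with no filter (0.366%), 8 with at least 10 counts in every library (10.1%), 0 with either covariate (0% with the clock score, 0.544% with the 7SL share) and 0 to 16 with libraries left out, with 16 without CKD-Oxf replicate 4 (13.9%). For CKD-Oxf against CKD-vehicle they were 1 by DESeq2 (0.785%), 18 by limma voom (15.0%) and 0 to 4 with libraries left out. They were 1 by limma voom for CKD-vehicle against sham-vehicle (0.383%), and 1 by DESeq2 (0.485%) and 1 by limma voom (0.519%) for CKD against sham. The interaction of Tfrc changed sign, to 0.03, with the clock score and ran from -0.37 to 0.04 with libraries left out, positive without sham-Oxf replicate 1. No paired analysis was possible because the labels give the groups no shared replicate numbers. Low counts limit Hpx, with at most 11 counts in any CKD-vehicle library. Hamp had an SE of 0.58, and its counts ran from 0 to 644 per library.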
